A study of Rattus norvegicus with 31 samples.

Results

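The genes described are 8 that serve the uptake of fatty acids by skeletal muscle and their storage in lipid droplets: Cd36, Fabp3, Lpl, Acsl1, Plin2, Plin5, Pnpla2 and Angptl4. They were chosen as a list by name, and a row was taken where the gene name in the deposited normalized table was that of a listed gene. Of the 8 genes 6 were found among 11289 genes, and all 6 passed the filter on low counts and were tested among 10082 genes. Cd36 and Pnpla2 are not analysed here. The row whose second symbol column reads Cd36 has the gene name RGD1565355 and was not taken for Cd36.

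Levels were measured in the gastrocnemius, a mostly fast calf muscle, of 31 female Sprague Dawley rats aged 7 months and fed chow. The groups were Ucp1 knockout rats at 4 °C for 14 days (n = 8), Ucp1 knockout rats at room temperature (n = 7), control rats at 4 °C for 14 days (n = 8) and control rats at room temperature (n = 8). Ucp1 encodes the uncoupling protein of brown fat mitochondria, so the design asks how muscle responds to cold in animals with and without it. The labels do not say how the knockout was made, whether it is confined to a tissue, or whether the controls are littermates, and genotype is taken from them alone, since Ucp1 itself is not analysed here. Each animal gave 1 library of 3' end tags of polyadenylated RNA. Levels are in CPM, counts scaled to a common library size after TMM normalization; changes are log2 fold changes with their standard error (SE), and a change passed where the adjusted p of edgeR's quasi-likelihood test was under 0.05.

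Muscle takes up fatty acids that lipoprotein lipase, the product of Lpl, frees from circulating triglyceride at the capillary wall, and Angptl4 is a secreted inhibitor of that enzyme. Fatty acids cross the cell membrane with the help of Cd36, are carried in the cytosol by the binding protein Fabp3, and are joined to coenzyme A by acyl-CoA synthetases such as Acsl1. What is not burned is stored in droplets coated by Plin2 and Plin5 and released by the lipase encoded by Pnpla2. Several of these genes are known targets of the PPAR nuclear receptors, which fatty acids activate.

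Libraries held between 6.56 and 11.86 M counts. Muscle genes such as Ckm, the muscle creatine kinase (7803 to 23760 CPM), and Acta1, skeletal actin (20680 to 51820 CPM), were high in every library. On the second principal component (14.09% of the variance) the room temperature controls 1 and 2 lay far from all others, and they held almost no Adipoq, the adipocyte hormone, with 0.630 and 0.313 CPM, where the lowest and highest of the other 6 room temperature controls had 10.7 and 31.5 CPM. A set of 7 libraries, with 1 or 2 from each group and control animal 1 among them, had low scores on the first component (35.3% of the variance). That set was picked after the data were seen. Leaving out both sets removes 8 libraries. The changes and counts that these libraries move most are given with and without them.

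Over both genotypes, cold was accompanied by a higher Lpl level and a lower Angptl4 level, and these were the 2 of 6 measured genes that passed. Across all genes tested 5.65% passed in the same comparison, 3.67% higher and 1.98% lower. The median change of the 6 genes was 0.36, against -0.02 over all genes tested. Fabp3, Plin5 and Acsl1 had positive fitted changes and Plin2 a negative one, and none of these 4 passed. In muscle pieces, fewer cells of a type and less RNA per cell cannot be told apart.

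**Figure D1:**
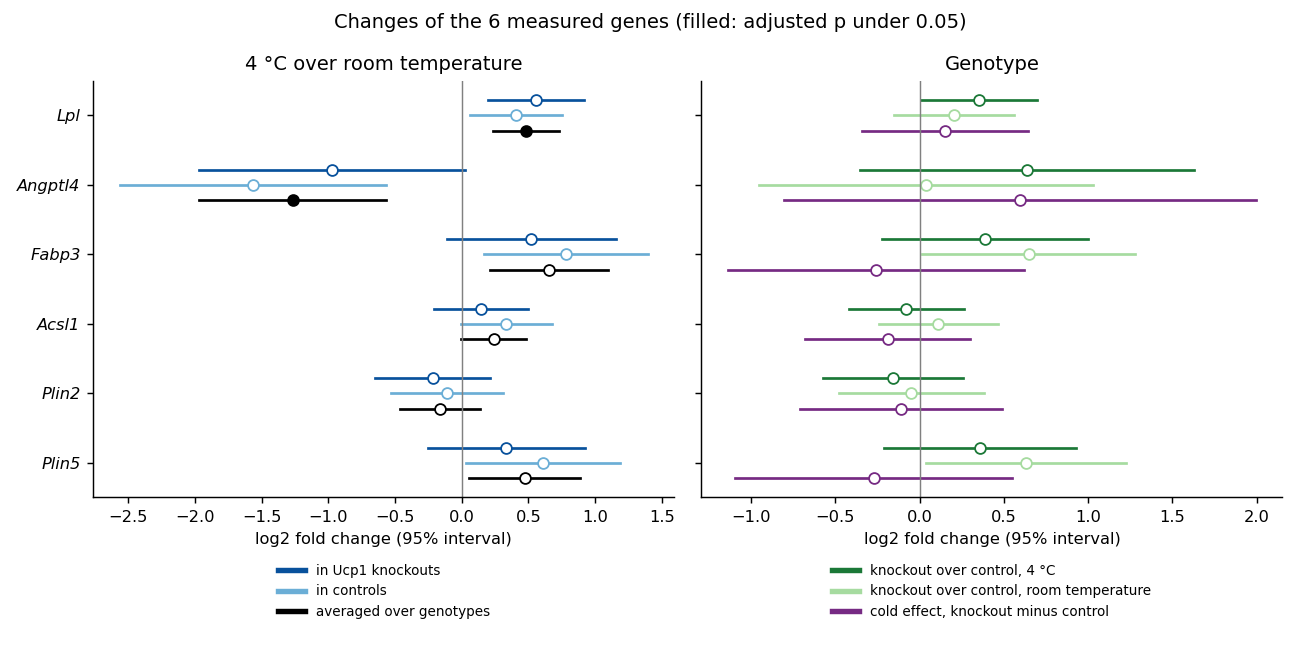
Log2 fold changes of the 6 measured genes in each comparison, cold over room temperature or knockout over control, with 95% intervals of the fit; filled points passed at an adjusted p under 0.05. Lpl (0.48) and Angptl4 (-1.27) are filled in the comparison of cold with room temperature averaged over genotypes, and no point is filled in the others.

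Lpl (ENSRNOG00000012181) had a lowest, median and highest level of 572, 865 and 1075 CPM in knockout rats at 4 °C, against 467, 567.8 and 666 CPM in knockout rats at room temperature. In control rats at 4 °C the same values were 356, 680 and 904 CPM, against 317, 504 and 618 CPM in control rats at room temperature. The groups overlapped in both genotypes, yet 5 of 8 cold knockouts lay above every knockout at room temperature and 6 of 8 cold controls above every control at room temperature. The other 2 cold controls, animals 17 and 23, are both in the set of 7 with low first component scores. Group means were 824 ± 195 and 560 ± 69.3 CPM in knockouts at 4 °C and at room temperature, and 645 ± 171 and 486 ± 113 CPM in controls at 4 °C and at room temperature (SD).

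Averaged over genotypes, Lpl rose in the cold by 0.48 ± 0.12 on the log2 scale (SE; 95% interval 0.24 to 0.73; edgeR adjusted p = 0.0137), a fold of 1.40. Of the 16 cold animals 14 lay above the median of the 15 animals at room temperature. The change passed with each library left out in turn (0.44 to 0.53) and in all 9 alternative analyses, among them the fits without control animals 1 and 2 (0.41, adjusted p = 0.0260) and without the 7 libraries of the first component (0.49, adjusted p = 0.00539). Within a single genotype it did not pass: 0.56 ± 0.18 in knockouts (adjusted p = 0.0974) and 0.41 ± 0.17 in controls (adjusted p = 0.255).

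**Figure D2:**
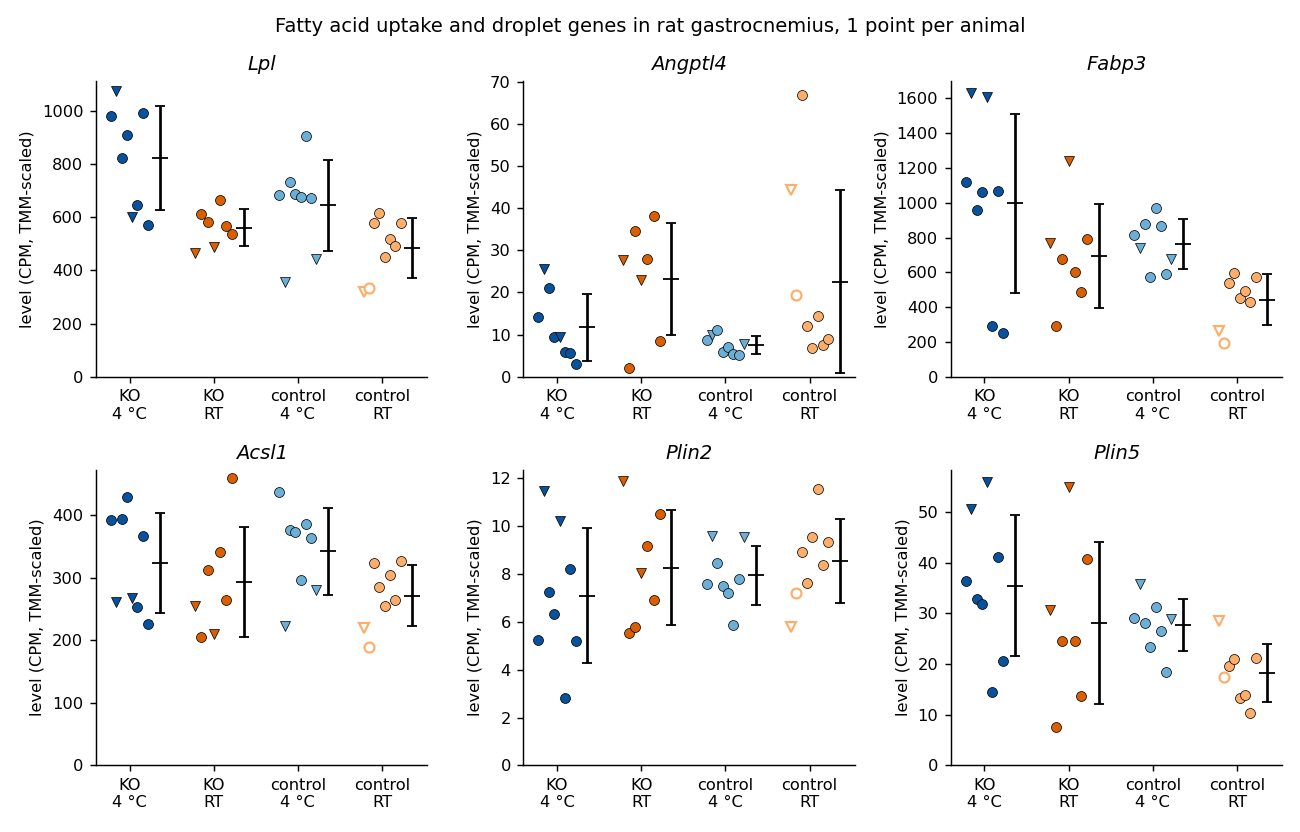
Level of each measured gene in CPM, 1 point per animal, with the mean and SD of each group as a bar; groups run from knockouts at 4 °C (n = 8) and at room temperature (RT, n = 7) to controls at 4 °C and at room temperature (n = 8 each). Triangles are the 7 libraries with low first component scores and open symbols are control animals 1 and 2; all pairs of groups overlap for every gene.

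Angptl4 (ENSRNOG00000007545), whose product inactivates lipoprotein lipase, had a lowest, median and highest level of 3.04, 9.48 and 25.5 CPM in knockout rats at 4 °C, against 2.07, 27.6 and 38.1 CPM in knockout rats at room temperature. In control rats the values were 5.04, 7.33 and 11.1 CPM at 4 °C, against 6.84, 13.1 and 66.9 CPM at room temperature. All 8 cold animals of each genotype lay below the room temperature median of their genotype, though the ranges overlapped. The spread was wide at room temperature: control animals 3, 1 and 2 had 66.9, 44.4 and 19.5 CPM, and the other 5 controls had 6.84 to 14.3 CPM. Among knockouts at room temperature the highest level was 18.4 times the lowest, which came from animal 10. Counts behind these values ran from 22 to 442 reads per library, so counting error is small beside the spread between animals.

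Averaged over genotypes, Angptl4 fell by 1.27 in the cold on the log2 scale (SE 0.35; 95% interval -1.97 to -0.56; edgeR adjusted p = 0.0237), to a fold of 0.415. The call rested in part on single libraries. Without control animal 3 the change was -1.03 (adjusted p = 0.0549), and without the 7 libraries of the first component it was -1.30 (adjusted p = 0.0654). Leaving out control animals 1 and 2 gave -1.15 (adjusted p = 0.0454). Within genotypes the values were -0.97 ± 0.49 in knockouts (adjusted p = 0.364) and -1.57 ± 0.49 in controls (adjusted p = 0.118).

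The promoter of Angptl4 is shown because its gene had the largest change of the 6; it is the RefSeq sequence of assembly GRCr8 at chr7:15258632-15258931, minus strand, from 250 bases before to 50 after the annotated start. Capitals mark a TATA box (TATAAA, found on both strands in overlapping positions, 41 and 39 bases before the start) and a GC box (GGGCGG on the other strand, 91 bases before it).
Angptl4: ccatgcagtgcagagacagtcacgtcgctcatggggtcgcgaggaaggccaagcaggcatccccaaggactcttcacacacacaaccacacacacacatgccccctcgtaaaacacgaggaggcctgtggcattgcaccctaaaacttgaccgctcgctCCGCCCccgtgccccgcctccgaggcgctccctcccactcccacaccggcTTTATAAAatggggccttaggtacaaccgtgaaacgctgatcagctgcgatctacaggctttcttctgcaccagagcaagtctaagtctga
A TATA box was present on either strand in 14.2% of 33469 RefSeq promoters of the same length and a GC box in 33.1%. No match to the PPAR direct repeat (a pair of AGGTCA half-sites with 1 base between them, on either strand, with at most 3 mismatches) was in this window, which says nothing of sites elsewhere.

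**Figure D3:**
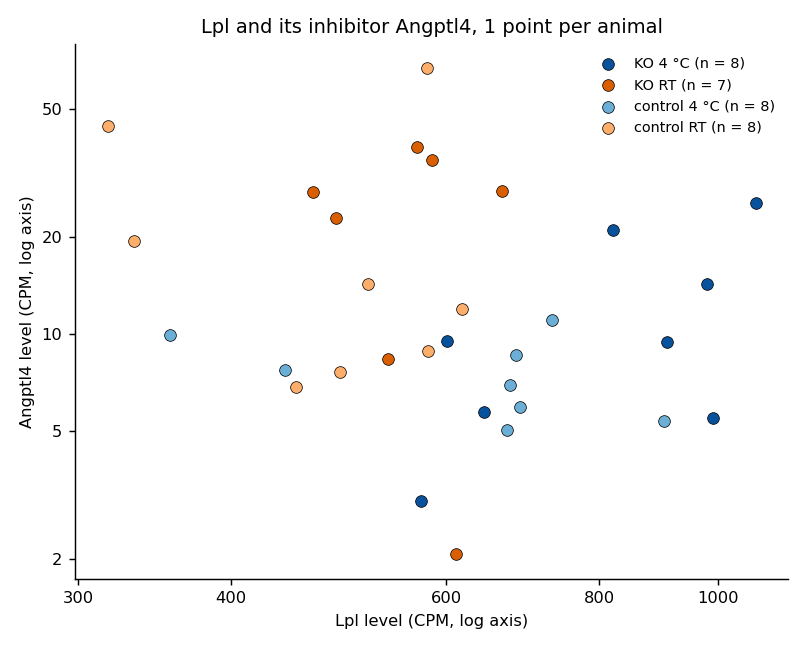
Level of Angptl4 against that of Lpl in CPM on log axes, 1 point per animal, coloured by group. The 6 highest Angptl4 levels are all from room temperature animals and the 11 highest Lpl levels are all from cold animals, while within groups no relation between the genes is visible (r = -0.01 with group means removed).

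Fabp3 (ENSRNOG00000012879), the cytosolic fatty acid carrier of heart and muscle, had a lowest, median and highest level of 251, 1064 and 1628 CPM in knockout rats at 4 °C, against 289, 679 and 1240 CPM in knockout rats at room temperature. In control rats it had 574, 776 and 968 CPM at 4 °C, against 197, 473 and 595 CPM at room temperature. In controls 6 of 8 cold animals lay above every animal at room temperature, while in knockouts the cold group reached both above and below the room temperature group, with animals 29 and 31 at the bottom. The change averaged over genotypes was 0.65 ± 0.22 (95% interval 0.21 to 1.09; adjusted p = 0.0716). It passed with DESeq2 (0.65, adjusted p = 0.0396) and with knockout animal 12 at room temperature, knockout animal 29 in the cold or knockout animal 31 in the cold left out (0.71 to 0.76, adjusted p = 0.0243 to 0.0303). Within genotypes the values were 0.52 ± 0.31 in knockouts (adjusted p = 0.472) and 0.78 ± 0.30 in controls (adjusted p = 0.223).

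Acsl1 (ENSRNOG00000010633), the long-chain acyl-CoA synthetase that prepares fatty acids for oxidation or storage, averaged 324 ± 79.5 and 293 ± 88.4 CPM in knockouts at 4 °C and at room temperature, and 342 ± 69.3 and 271 ± 49.0 CPM in controls at 4 °C and at room temperature (SD). Its levels ran from 226 to 429 CPM in cold knockouts, with a median of 317 CPM, and from 206 to 459 CPM in knockouts at room temperature, with a median of 264 CPM. In cold controls they ran from 223 to 437 CPM with a median of 368 CPM, and in controls at room temperature from 189 to 326 CPM with a median of 275 CPM. Of 16 cold animals 12 exceeded the room temperature median, and the ranges of the groups overlapped in both genotypes. The change averaged over genotypes was 0.24 ± 0.12 and did not pass (adjusted p = 0.270).

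The droplet coat genes Plin5 and Plin2 differed in the sign of their fitted change. Plin5 (ENSRNOG00000047860), the perilipin of oxidative tissues that ties droplets to mitochondria, had a lowest, median and highest level of 14.4, 34.6 and 55.9 CPM in knockouts at 4 °C, against 7.63, 24.6 and 55.0 CPM in knockouts at room temperature. In controls it had 18.4, 28.4 and 35.8 CPM at 4 °C, against 10.4, 18.5 and 28.5 CPM at room temperature. Of 16 cold animals 13 lay above the room temperature median, with overlap in each genotype. The change averaged over genotypes was 0.47 ± 0.20 (95% interval 0.06 to 0.88) and did not pass (adjusted p = 0.181).

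Plin2 (ENSRNOG00000007060), the perilipin found on droplets of most cell types, was counted with 26 to 121 reads per library. It averaged 7.10 ± 2.83 and 8.27 ± 2.40 CPM in knockouts at 4 °C and at room temperature, and 7.95 ± 1.23 and 8.55 ± 1.74 CPM in controls at 4 °C and at room temperature (SD). Its range was 2.82 to 11.5 CPM in cold knockouts, against 5.55 to 11.9 CPM in knockouts at room temperature, and 5.88 to 9.57 CPM in cold controls, against 5.80 to 11.6 CPM in controls at room temperature. The groups overlapped, and the averaged change was -0.16 ± 0.15 (95% interval -0.46 to 0.14; adjusted p = 0.589), an interval that leaves out changes of the size fitted for Lpl. Both perilipins varied most between animals among knockouts, with a coefficient of variation for Plin5 of 39.3% and 57.0% in knockouts at 4 °C and at room temperature, and 18.7% and 31.5% in controls at 4 °C and at room temperature.

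Taken by genotype, edgeR passed 0 of 6 genes for cold against room temperature in knockouts, where 1.38% of all genes passed (1.02% higher, 0.357% lower), and 0 of 6 in controls, where 0.853% passed (0.595% higher, 0.258% lower). At an unadjusted p under 0.05 there was 1 gene in knockouts and 4 in controls, against 14.3% and 14.2% of all genes. DESeq2 passed 0 genes in knockouts and 1 in controls, Angptl4 (-1.56, adjusted p = 0.0392). Without control animals 1 and 2 Lpl passed in knockouts (0.56, adjusted p = 0.0443).

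Whether the cold effect differed between genotypes was tested directly, as the effect in knockouts minus that in controls. EdgeR and DESeq2 passed 0 of 6 genes, 0 had an unadjusted p under 0.05 against 7.31% of all genes, and edgeR passed 0% of all genes. The difference was 0.15 (95% interval -0.34 to 0.64) for Lpl and 0.60 (-0.80 to 2.00) for Angptl4. Both intervals take in 0 and also differences larger in size than the fitted cold effect averaged over genotypes (0.48 for Lpl, -1.27 for Angptl4). The same held for the intervals of Fabp3 (-1.14 to 0.62), Acsl1 (-0.68 to 0.30), Plin2 (-0.71 to 0.49) and Plin5 (-1.10 to 0.55). A sizeable difference between genotypes is therefore neither shown nor excluded for any of the 6 genes.

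Knockouts were also set against controls at each temperature. At room temperature edgeR passed 0 of 6 genes and 0% of all genes, and in the cold 0 of 6 genes and 0.00992% of all genes, with 0 of 6 by DESeq2 at both temperatures. Unadjusted p-values were under 0.05 for 2 genes at room temperature (7.06% of all genes), Fabp3 (0.65 ± 0.31, adjusted p = 0.699) and Plin5 (0.63 ± 0.29, adjusted p = 0.698), and for 1 in the cold (6.28% of all genes), Lpl (0.35 ± 0.17, adjusted p = 0.789). These values depended on the libraries that stood apart: without the 7 libraries of the first component 0 of 6 genes had an unadjusted p under 0.05 at either temperature. Fabp3 was then 0.29 and Plin5 0.42 at room temperature, and Lpl was 0.18 and Fabp3 0.02 in the cold, against 0.39 for Fabp3 in the cold over all libraries. With control animals 1 and 2 left out instead, Fabp3 was 0.43 and Plin5 0.76 at room temperature, and with both sets left out Fabp3 was 0.15 and Plin5 0.43. Fabp3 averaged 694 ± 297 CPM in knockouts and 444 ± 144 CPM in controls at room temperature, and 5 of 7 knockouts lay above every control. Ordered by mean, Fabp3 and Lpl both ran from knockouts at 4 °C through controls at 4 °C and knockouts at room temperature down to controls at room temperature, and neighbouring groups in that order overlapped. Plin5 had the order knockouts at 4 °C, knockouts at room temperature, controls at 4 °C and controls at room temperature, and for Angptl4 both room temperature groups had higher means than both cold groups, again with overlap. These comparisons share groups with those of cold against room temperature.

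Over all 31 animals the 6 genes did not vary as 1 block, and how they grouped depended on the libraries used. With group means removed, log2 levels over 31 animals correlated most for Fabp3 and Plin5 (Pearson r = 0.70, Spearman rho = 0.66) and for Lpl and Acsl1 (r = 0.66, rho = 0.61). Their permutation p-values were 0.00016 and 0.00016 for Fabp3 and Plin5, and 9e-05 and 0.00067 for Lpl and Acsl1, which gave 0.0012 and 0.0024, and 0.0012 and 0.0050, after adjustment over 15 pairs. Without the 2 animals farthest from the median of the first gene r was 0.63 and 0.58. Fabp3 and Plin2 (r = 0.66, rho = 0.51; adjusted p = 0.0057 and 0.0312) and Plin2 and Plin5 (r = 0.53, rho = 0.49; adjusted p = 0.0312 and 0.0444) passed too, while Lpl was unrelated to Plin5 (r = -0.08) and Angptl4 (r = -0.01) within groups. Of 15 pairs 6 passed by Pearson and 5 by Spearman. Plin5 and Angptl4 passed by Pearson only (r = 0.52, adjusted p = 0.0382, against rho = 0.37, adjusted p = 0.138). That pair did not pass in 2 of 3 alternative settings.

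Which pairs passed depended on the libraries that stood apart. Without the 7 libraries of the first component Fabp3 and Acsl1 correlated at 0.84 (adjusted p = 0.0030), against 0.41 (adjusted p = 0.0809) over all animals. Without control animals 1 and 2 Fabp3 and Lpl correlated at 0.30 (adjusted p = 0.299), against 0.43 (adjusted p = 0.0382) over all animals. Animals 29 and 31 of the cold knockouts and animal 10 of the knockouts at room temperature held the low corner for Fabp3 and Plin5.

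**Figure D4:**
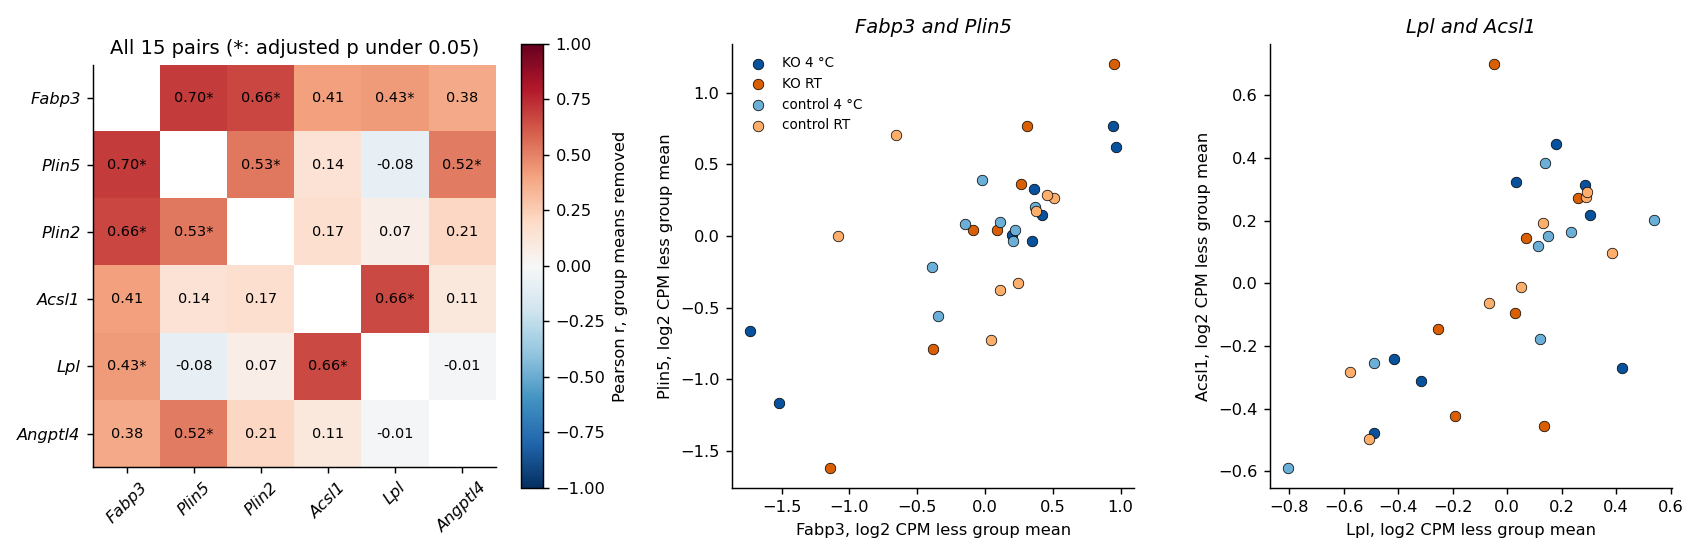
Left, Pearson r of log2 levels for all 15 pairs of the 6 genes over 31 animals with group means removed, where a star marks an adjusted p under 0.05. Centre and right, the animals' values for Fabp3 and Plin5 (r = 0.70) and for Lpl and Acsl1 (r = 0.66), in log2 CPM less the group mean, coloured by group.

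The promoters of Fabp3 and Plin5 are shown because these genes varied together most. They are RefSeq sequences of assembly GRCr8 at chr5:147935875-147936174, plus strand, and chr9:1033235-1033534, minus strand, each from 250 bases before to 50 after the start. Capitals mark matches to the PPAR direct repeat (a pair of AGGTCA half-sites with 1 base between them, on either strand, with 3 mismatches) and, in Plin5, a pair of adjoining GC boxes (GGGCGG).
Fabp3: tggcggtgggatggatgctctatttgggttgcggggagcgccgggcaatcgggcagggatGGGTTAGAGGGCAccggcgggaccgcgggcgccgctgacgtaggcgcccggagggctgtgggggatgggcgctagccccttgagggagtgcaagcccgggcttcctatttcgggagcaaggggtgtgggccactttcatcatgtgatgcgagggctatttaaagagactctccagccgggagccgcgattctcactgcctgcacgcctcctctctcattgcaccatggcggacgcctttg
Plin5: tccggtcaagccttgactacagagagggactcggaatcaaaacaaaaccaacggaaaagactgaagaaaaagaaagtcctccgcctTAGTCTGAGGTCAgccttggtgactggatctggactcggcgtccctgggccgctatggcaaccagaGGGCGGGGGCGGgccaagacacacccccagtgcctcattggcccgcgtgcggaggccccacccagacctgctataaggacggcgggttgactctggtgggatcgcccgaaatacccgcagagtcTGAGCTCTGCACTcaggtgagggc
The repeat began 190 bases before the start of Fabp3 and 164 before that of Plin5, where a second match on the other strand lay 26 bases past the start. With at most 3 mismatches allowed, 24.9% of 33469 promoters held such a match, so these are matches of letters and not shown to be sites. RefSeq promoters were found for 5 of the 6 measured genes.

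Some markers of other cells and of fibre type passed for temperature as well, and their part in the changes of the 6 genes was not tested. Averaged over genotypes, 3.67% of all genes passed as higher in the cold and 1.98% as lower. In that comparison 9 of 10 slow fibre genes rose in the cold, and 0 fell. Their summed level ran from 13355 to 30964 CPM in cold knockouts and 18555 to 25078 CPM in cold controls, against 8618 to 14644 CPM in knockouts and 6246 to 16775 CPM in controls at room temperature. Of 11 white adipocyte markers tested 1 rose, Retn (1.95), and of 12 macrophage markers 2 rose, Cd163 and C1qb, while 1 of 11 endothelial markers, Cdh5, fell by 0.59. White adipocyte markers summed to 578 to 1446 CPM in cold knockouts and 524 to 931 CPM in cold controls, against 482 to 756 CPM in knockouts and 209 to 818 CPM in controls at room temperature. The medians of these sums were 974 and 646 CPM in knockouts at 4 °C and at room temperature, and 621 and 628 CPM in controls. The median log2 change of these markers was 0.90 in knockouts and 0.41 in controls, or 0.11 in controls without animals 1 and 2. For the difference between cold effects edgeR passed 0 of 11 and 0% of all genes. Of these markers 1 had an unadjusted p under 0.05, against 7.31% of all genes, and the median difference was 0.80. Without control animals 1 and 2, 0 of 12 passed and 8 had an unadjusted p under 0.05 (median 1.04). Without the 7 libraries of the first component 0 of 12 had an unadjusted p under 0.05 (median 0.92). Macrophage markers summed to 344 to 500 and 270 to 465 CPM in cold knockouts and cold controls, against 204 to 433 and 67.4 to 331 CPM in knockouts and controls at room temperature. Endothelial markers summed to 339 to 604 and 294 to 418 CPM in cold knockouts and cold controls, against 349 to 584 and 354 to 539 CPM in knockouts and controls at room temperature. Cidec and Lep were at 0 counts in control animals 1 and 2, Lgals12 in animal 2, Pck1 in animal 1 and Pparg in control animal 2 and knockout animal 9, all at room temperature. Cd14, a macrophage marker, was at 0 in control animal 4. Of 4 erythrocyte marker rows 3 rose, Alas2 (0.97), an enzyme of haem synthesis in red cells, and a pair of rows named Hba-a2 (0.78 and 0.72), whose copies may share reads. These markers summed to 444 to 2019 and 468 to 1084 CPM in cold knockouts and cold controls, against 254 to 1079 and 336 to 659 CPM in knockouts and controls at room temperature. Slc4a1 was at 0 counts in knockout animal 13 and control animals 1, 3 and 4 at room temperature and in cold control animal 23, and Hbb in control animal 1. Without control animals 1 and 2 the counts of markers that rose were 8 of 10 for slow fibres, 3 of 12 for white adipocytes and 3 of 12 for macrophages, and without the 7 libraries of the first component they were 7 of 10, 1 of 12 and 5 of 12.

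Between animals of a group, 3 of 24 relations of a gene to a marker score passed by Pearson's r and 1 by Spearman's rho. These were Fabp3 with slow fibre genes (r = 0.49, rho = 0.35; permutation p = 0.0056 and 0.0661, adjusted p = 0.0445 and 0.188; r = 0.37 without 2 animals), Plin2 with white adipocyte markers (r = 0.48, rho = 0.67; permutation p = 0.0006 and 9e-05, adjusted p = 0.0144 and 0.0022; r = 0.47) and Plin5 with endothelial markers (r = 0.60, rho = 0.52; permutation p = 0.0013 and 0.0062, adjusted p = 0.0158 and 0.0743; r = 0.49). None of the 24 passed without control animals 1 and 2 or without the 7 libraries of the first component. Over the 3 alternative settings r ran from 0.33 to 0.50 for Fabp3 with slow fibre genes and from 0.39 to 0.62 for Plin5 with endothelial markers. For Plin2 with white adipocyte markers r stayed at 0.48 to 0.50, while its adjusted permutation p reached 0.107. Lpl, Acsl1 and Angptl4 passed with no score.

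Other genes of the pathway are given for cold averaged over genotypes, where 5.65% of all genes passed and 19.5% had an unadjusted p under 0.05. For lipase handling edgeR passed 0 of 11 genes, with 2 at an unadjusted p under 0.05: Gpihbp1, which anchors lipoprotein lipase on capillary endothelium, was 8.37 and 7.18 CPM on average in cold knockouts and cold controls, against 5.80 and 4.998 CPM in knockouts and controls at room temperature (0.53 ± 0.18, adjusted p = 0.0713), and Furin, a protease that cleaves the lipase and its inhibitors, had 0.27 ± 0.09 (adjusted p = 0.0769). Gpihbp1 passed with DESeq2. For uptake and binding edgeR and DESeq2 passed 0 of 10 genes, with 3 at an unadjusted p under 0.05. These were the caveolar coat genes Cavin1 (-0.41, adjusted p = 0.116) and Cavin2 (-0.38, adjusted p = 0.124), and Got2 (0.20, adjusted p = 0.164). The related genes Cavin4 (0.08, adjusted p = 0.700) and Cav3 (0.07, adjusted p = 0.840) had positive values. Cavin2 passed as lower without control animals 1 and 2 and without the 7 libraries of the first component. Cav1 passed as lower beside it when both sets were left out.

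Among 13 genes of acyl-CoA formation and binding 1 rose and 0 fell. That was Dbi, the acyl-CoA binding protein, at 381 and 354 CPM on average in cold knockouts and cold controls, against 294 and 253 CPM in knockouts and controls at room temperature (0.43 ± 0.12, adjusted p = 0.0248); Acsl6, a relative of Acsl1, had -0.43 ± 0.13 (adjusted p = 0.0501) and passed as lower with DESeq2. Among 12 genes of droplet coat and assembly 2 rose and 0 fell. They were Rab18, a small GTPase of the droplet surface (0.35 ± 0.08, adjusted p = 0.0115), and Dgat2, which makes triglyceride in the last step of its synthesis (0.46 ± 0.12, adjusted p = 0.0167). Dgat2 averaged 40.3 and 32.8 CPM in cold knockouts and cold controls, against 26.5 and 26.6 CPM in knockouts and controls at room temperature. Plin1, another perilipin, had 0.92 ± 0.31 (edgeR adjusted p = 0.0760) and passed as higher with DESeq2 and with the first component as a covariate. Cidec had 0.84 ± 0.32 (edgeR adjusted p = 0.124). Both are also among the white adipocyte markers. The median of the 12 genes was 0.08.

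For lipolysis edgeR and DESeq2 passed 0 of 11 genes, and 0 had an unadjusted p under 0.05. EdgeR and DESeq2 also passed 0 of 11 in knockouts, in controls and for the difference between cold effects, with 4, 2 and 3 at an unadjusted p under 0.05 by edgeR (14.3%, 14.2% and 7.31% of all genes). For that difference Ddhd2, a phospholipase and triglyceride hydrolase named after its values were seen, had -1.85 ± 0.46 (adjusted p = 0.452), at means of 0.630 and 1.07 CPM in cold knockouts and cold controls, against 1.01 and 0.472 CPM in knockouts and controls at room temperature. Over both genotypes Lipe, hormone-sensitive lipase, had 0.20 ± 0.11 (adjusted p = 0.347), and G0s2, an inhibitor of the lipase encoded by Pnpla2, -0.59 ± 0.44 (adjusted p = 0.495). Of 17 other genes known to respond to PPAR receptors 2 rose and 0 fell: Ucp2, a mitochondrial carrier (1.58 ± 0.19, adjusted p = 4.56e-06), and Cpt1b, which admits fatty acids to muscle mitochondria (0.46 ± 0.11, adjusted p = 0.0102). Like Angptl4, which is also PPAR-responsive, Ucp3 and Pdk4 had negative values, -0.39 (adjusted p = 0.356) and -0.38 (adjusted p = 0.537), but neither passed. List medians ran from -0.14 for uptake and binding to 0.18 for lipase handling, against -0.02 over all genes.

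**Figure D5:**
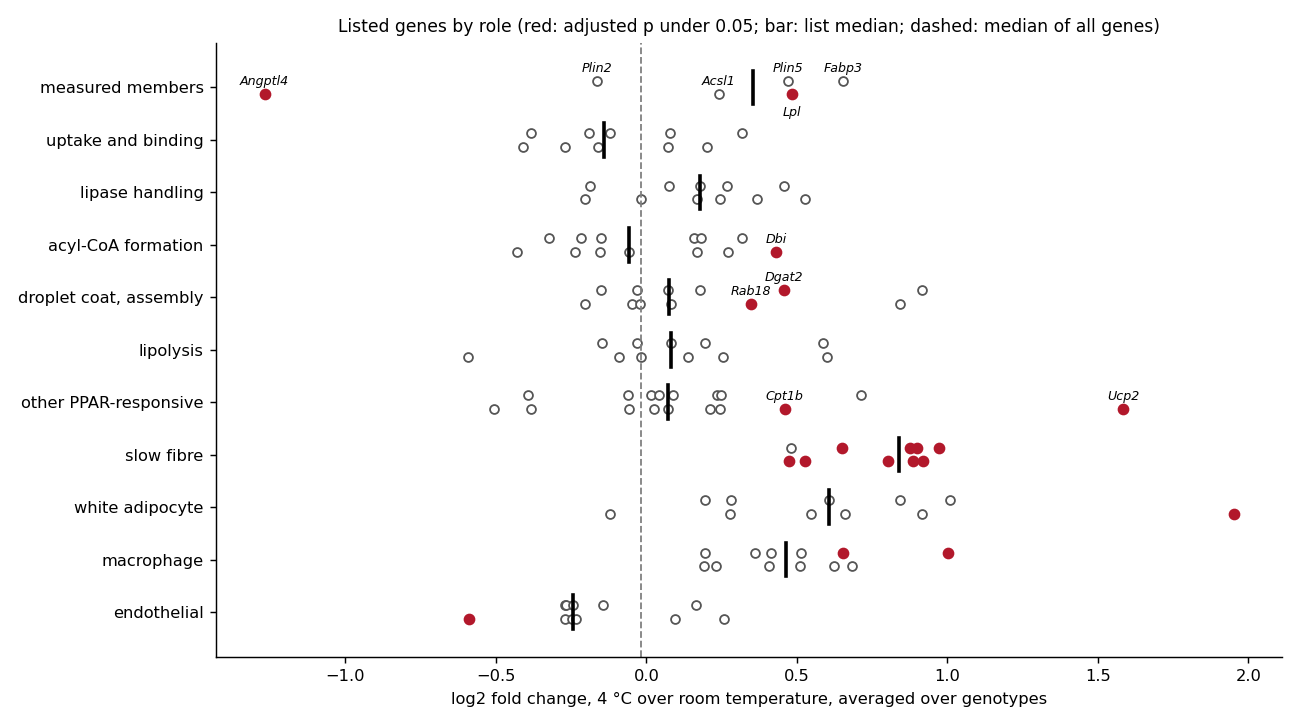
Log2 fold change at 4 °C over room temperature, averaged over genotypes, for each tested gene of the lists by role, with a bar at the list median and a dashed line at the median of all genes (-0.02). Filled points passed at an adjusted p under 0.05: 2 of 6 measured members, 0 to 2 in each of the other pathway lists, and 9 of 10 slow fibre genes.

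The genes whose log2 levels ran most alike over the 31 libraries, group differences included, are given as a description. Those of Fabp3 were Acot13 (r = 0.88), an acyl-CoA thioesterase, Mdh1 (r = 0.88), cytosolic malate dehydrogenase, and Cyc1 (r = 0.87), cytochrome c1. Those of Lpl were Sln (r = 0.80), sarcolipin, the inhibitor of the sarcoplasmic calcium pump, Aig1 (r = 0.79) and Glrx (r = 0.79), glutaredoxin. Acsl1 was most like Aifm1 (r = 0.81), Slc25a3 (r = 0.81), the mitochondrial phosphate carrier, and Hccs (r = 0.80). Plin5 was most like Dbi (r = 0.86), Hba-a2 (r = 0.82), a globin gene with near-identical copies, and Coq7 (r = 0.81), a ubiquinone synthesis enzyme. Plin2 was most like Pkia (r = 0.79), Spon2 (r = 0.77) and Pdlim2 (r = 0.74), and Angptl4 most like Armcx2 (r = 0.73), Ucp3 (r = 0.70), a muscle mitochondrial carrier, and Col4a4 (r = 0.70). These points share library depth and composition.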

How the data were processed

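The authors deposited counts of reads per gene for 31 libraries made with a QuantSeq 3' kit, per the labels' protocols, and normalized signal values, which equal each library's counts divided by its size factor (largest relative deviation 5.23e-10). Rnor_6.0 was the build and DESeq2 1.22.2 a tool, per the submitters' processing notes. The aligner, counter and strandedness are not stated in the labels or headers. The lowest gene total of 93 counts shows that low genes had been removed.

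Counts were tested with edgeR 4.0.16 (R 4.3.3): TMM scaling, filterByExpr (minimum count 10, minimum total 15), 1 mean per group over 31 libraries (27 residual degrees of freedom), two-sided quasi-likelihood tests with Benjamini-Hochberg adjustment over 10082 genes and a threshold of 0.05. DESeq2 1.42.0 was an alternative. The SE is the log2 change over the square root of F, and 95% intervals use the moderated degrees of freedom. Log2 levels used a prior count of 2. Correlations used log2 CPM less group means, with p from 100000 permutations within groups, adjusted over 15 pairs or 24 relations. Scripts were tested on simulated data. Libraries of a group differed beyond sampling noise (over 105 pairs, a chi-square of at least 5.23 for each degree of freedom). The labels do not say whether batches existed. Intervals cover no PCR duplication.

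The members and lists were chosen with earlier results of these data known. All members are named, up to 4 genes of each other list by p or any that passed, and the 3 genes most alike for each member. Cavin4 and Cav3 were named besides, for comparison with Cavin1 and Cavin2. Genome coordinates are those of RefSeq's GRCr8 promoters only; no GRCr8 position was used for counts.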

Additional observations from a re-analysis of the deposited data

How the results depend on the processing

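Each change and each count of genes passing was recomputed with DESeq2 size factors, upper quartile scaling, DESeq2, 2 other filters on low counts, only the groups compared, control animals 1 and 2 left out, the first principal component as a covariate, and each library left out. Leaving out the 7 libraries of the first component, alone or with control animals 1 and 2 (8 libraries in all), was added after seeing the data. Correlations were recomputed in 3 settings only: DESeq2 size factors, control animals 1 and 2 left out, and the 7 libraries left out. They were not recomputed with each library left out. No paired analysis was possible because every animal has a number of its own.

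The 6 genes had 1 passing in knockouts for cold against room temperature (0 in the main analysis) without control animals 1 and 2, with the component as a covariate and with both sets of libraries left out (Lpl, adjusted p = 0.0443, 0.0255 and 0.0459), and 1 in controls with DESeq2 and with the covariate (Angptl4, adjusted p = 0.0392 and 0.0457). Averaged over genotypes 3 passed with DESeq2, 1 without the 7 libraries, 1 with both sets out, and 1 to 3 with a library left out. Leaving out single libraries left every other count of the 6 genes at 0.

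Counts over all genes moved more. For cold in knockouts (139) they were 322 with DESeq2, 53 with only the groups compared, 379 without control animals 1 and 2, 674 with the covariate, 387 with both sets out, and 56 to 231 with a library left out. For cold in controls (86) they were 219 with DESeq2, 38 without control animals 1 and 2, 379 with the covariate (160 higher, 219 lower), 53 without the 7 libraries, and 36 to 154 with a library left out. Averaged over genotypes (570) the covariate gave 1274 (675 higher, 599 lower), and single libraries 451 to 688. Knockout against control at room temperature (0) gave 1 with DESeq2 and 0 to 1 with a library left out; in the cold (1) it gave 6 with DESeq2, 0 at a mean of at least 5 CPM, 0 with only the groups compared, 4 without control animals 1 and 2, 8 with the covariate, 0 without the 7 libraries, 0 with both sets out, and 0 to 3 with a library left out. The difference between cold effects (0) gave 1 with DESeq2 and 0 to 1 with a library left out.

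Changes of sign were all in values that passed in no setting. Without control animals 1 and 2, Acsl1 was -0.0019 for knockout against control at room temperature, Plin2 0.0124 for the difference between cold effects, and the correlations of Lpl were -0.0836 with Plin2, 0.0147 with Plin5 and 0.14 with Angptl4. Without the 7 libraries, Lpl was -0.0467 for the difference between cold effects and correlated at 0.34 with Plin5 and 0.19 with Angptl4. With a library left out, knockout against control at room temperature ran from -0.0225 to 0.19 for Acsl1, -0.11 to 0.51 for Angptl4 and -0.16 to 0.0337 for Plin2, and the difference between cold effects from -0.23 to 0.0091 for Plin2. Correlations of the genes with marker scores that passed numbered 0 without control animals 1 and 2 and 0 without the 7 libraries. The cause of these shifts was not tested. Depth was lowest for Plin2, with 2286 counts over all libraries, and Angptl4, with 4422.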
